A study of Mus musculus with 7 samples.

Results

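Phosphatidylcholine, the main phospholipid of animal cell membranes, is built from choline that carriers bring into the cell. The genes described here were 3 choline transporter-like carriers (Slc44a1, Slc44a2 and Slc44a4) and 5 enzymes of the CDP-choline route (Chka, Chkb, Pcyt1a, Cept1 and Chpt1). They were taken by symbol from the table of gene expression, and the list was drawn up with results of the knockdown in view, so these genes were in effect chosen by values of the very contrast described here. All 8 genes were found, in 8 of the 11642 rows. Chkb had no row of its own. Its row joins it with the neighbouring gene Cpt1b, the muscle form of carnitine palmitoyltransferase, and the reads of the pair cannot be separated.

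C2C12 cells are a mouse myoblast line that stops dividing and fuses into myotubes when serum is lowered. Both groups were C2C12 cells transfected with siRNA and collected on day 2 of differentiation, and both were sequenced as total RNA. The si-SCR group (2 samples) received a scramble siRNA that targets no mouse transcript by design, and the si-SMaRT group (2 samples) received an siRNA against lnc-SMaRT, a long non-coding RNA of differentiating muscle. Sequencing covered 1 siRNA sequence only, so an effect of the siRNA that does not pass through lnc-SMaRT cannot be told apart from the knockdown. A further experiment recovered RNA bound to lnc-SMaRT by pull-down with antisense probes, with probes against the bacterial LacZ transcript as control, in 1 library each.

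In the CDP-choline route, also called the Kennedy pathway, choline kinases (Chka and Chkb) first phosphorylate choline. Pcyt1a, a cytidylyl transferase that is commonly the rate-limiting step, then makes CDP-choline, and the phosphotransferases Cept1 and Chpt1 transfer phosphocholine from it to diacylglycerol. Slc44a1 is the widely expressed choline transporter-like protein of the plasma membrane and mitochondria, Slc44a2 is a broadly expressed relative, and Slc44a4 is known mainly from epithelia, where it was also described as a carrier of thiamine pyrophosphate. Chkb has a known place in muscle, since its loss causes a muscular dystrophy in mice.

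Levels are given as RPKM, reads scaled by gene length and library size, so that levels of different genes can be compared per length. The lnc-SMaRT row stood at 19.1 and 15.9 RPKM in si-SCR 1 and 2 and at 2.88 and 3.65 RPKM in si-SMaRT 1 and 2, so the targeted RNA was low in both samples labelled as knockdown. The reads recovered from the RPKM values came to between 10816850 and 14099415 per sample. The members had between 51 and 2787 reads per sample. The si-SMaRT samples differed from each other more than the si-SCR samples did. The median SD over genes was 0.30 against 0.13 on the log2 scale. The difference between the si-SMaRT samples followed the GC content of the transcript. By the paper's read statistics, si-SMaRT 1 also lost a larger share of its read pairs to the rRNA and tRNA filter than any other sample. The part of this loss in the difference was not tested. All 8 markers of differentiating skeletal muscle were in the table, and their summed level was 8338 and 8755 RPKM in si-SCR 1 and 2 against 6297 and 4224 RPKM in si-SMaRT 1 and 2. Of the markers of other cell types, 0 of 4 for epithelium, 0 of 2 for endothelium and 0 of 2 for neurons were listed. Of 2 leukocyte markers only Cd68 was listed, at 0.788 to 1.13 RPKM.

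In the contrast of si-SMaRT with si-SCR, 1 of the 8 members, Slc44a4, was lower and past the threshold of an adjusted p of 0.05 (limma, Benjamini-Hochberg), and 0 were higher. Over the 11086 rows tested, 0.325% were called lower and 0.505% were called in either direction. Because the members were chosen with this contrast in view, these counts are a description, and no test is given for them. The other members had log2 fold changes between -0.15 and 0.24, and the median of the 8 was -0.05, beside 0.02 over all rows tested. For 4 members all si-SMaRT values lay on 1 side of the si-SCR values, beside 40.7% of all rows tested. Slc44a1 and Chka were the higher members among these, and Slc44a4 and Pcyt1a the lower.

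**Figure D1:**
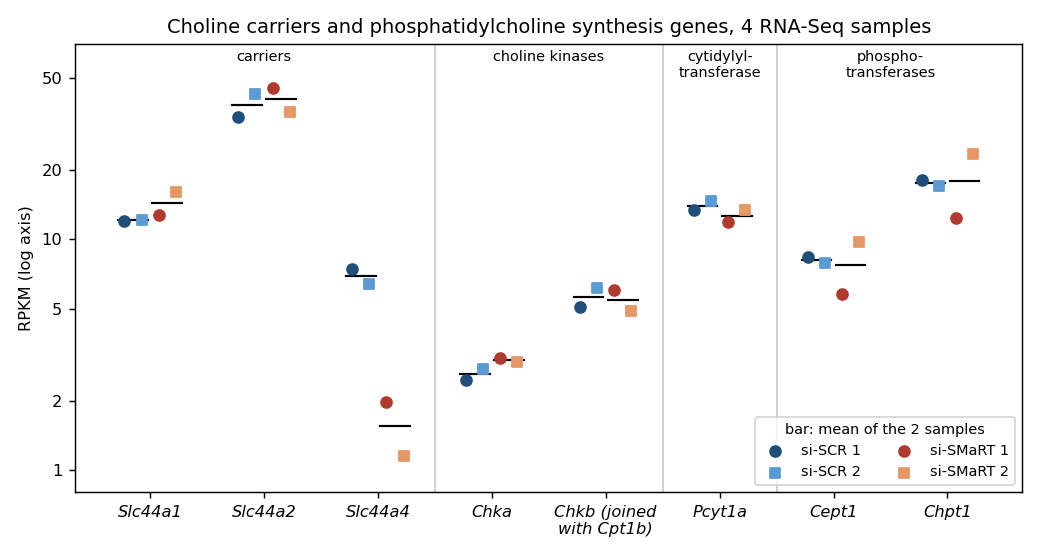
RPKM (log axis) of the 8 members in each of the 4 samples, ordered by role, with a black bar at the mean of the 2 samples of a group. Slc44a4 fell from 7.42 and 6.39 RPKM in si-SCR to 1.96 and 1.14 RPKM in si-SMaRT, while Cept1 and Chpt1 had their lowest value in si-SMaRT 1 and their highest in si-SMaRT 2.

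The start regions of 3 members are shown as a description, and no change of level was traced to them. Slc44a4 is the member that fell, and Cept1 and Chpt1 are the phosphotransferases, whose levels differed most between the si-SMaRT samples. Each sequence runs 5′ to 3′ on the gene's strand, from 250 bases before to 50 bases after the most upstream start listed by RefSeq (GRCm38.p6), and capitals mark the letters GGGCGG, the core of a GC box, or their reverse complement. The Slc44a4 window is chr17:34914216-34914515 on the plus strand, the Cept1 window chr3:106547753-106548052 on the minus strand, and the Chpt1 window chr10:88503921-88504220 on the minus strand.
Slc44a4: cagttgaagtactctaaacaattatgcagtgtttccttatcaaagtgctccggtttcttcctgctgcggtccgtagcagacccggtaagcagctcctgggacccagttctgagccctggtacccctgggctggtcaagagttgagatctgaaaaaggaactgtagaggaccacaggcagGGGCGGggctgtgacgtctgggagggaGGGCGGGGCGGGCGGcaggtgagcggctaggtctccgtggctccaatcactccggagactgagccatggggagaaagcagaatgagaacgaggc
Cept1: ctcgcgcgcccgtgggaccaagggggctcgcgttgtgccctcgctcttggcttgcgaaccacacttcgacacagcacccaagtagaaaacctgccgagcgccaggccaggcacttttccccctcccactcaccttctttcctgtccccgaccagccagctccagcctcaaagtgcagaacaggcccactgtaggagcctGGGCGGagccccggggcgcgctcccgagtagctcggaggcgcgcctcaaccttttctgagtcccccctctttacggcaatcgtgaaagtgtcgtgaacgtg
Chpt1: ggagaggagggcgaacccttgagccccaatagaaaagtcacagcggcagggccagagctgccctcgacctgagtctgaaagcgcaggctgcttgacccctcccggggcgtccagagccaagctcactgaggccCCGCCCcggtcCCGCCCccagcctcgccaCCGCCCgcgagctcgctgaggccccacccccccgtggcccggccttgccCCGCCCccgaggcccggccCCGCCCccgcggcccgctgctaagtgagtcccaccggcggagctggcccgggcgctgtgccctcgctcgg
The windows held 58.3%, 64.0% and 75.3% G and C, respectively. GGGCGG was found 4 times in Slc44a4, with 3 of the matches overlapping in 1 run, 1 time in Cept1 and 5 times in Chpt1.

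GGGCGG, searched on both strands, was present in the window of 8 of 8 members and in 35.7% of 32851 mouse promoters of the same length. These promoters were not limited to genes with a row in the expression table. Their shares therefore do not set the members beside other expressed genes. The E-box CANNTG, the core bound by muscle factors of the MyoD family among others, was present in 72.3% of promoters and in 6 of 8 members. Slc44a4 had 2 of these matches, and the windows of Cept1 and Chpt1 had 0. The letters TCACNCCAC of a sterol regulatory element were present in 1.24% of promoters and in 1 member, Pcyt1a, whose match began at base 135 of its window. These are matches of letters in short windows and not measured binding.

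Slc44a4 (chr17:34914466-34930436, plus strand) was the member whose level fell. It stood at 7.42 RPKM in si-SCR 1 and 6.39 RPKM in si-SCR 2, and at 1.96 RPKM in si-SMaRT 1 and 1.14 RPKM in si-SMaRT 2. The values rested on 292, 281, 69 and 51 reads, respectively. Both si-SMaRT samples were thus below both si-SCR samples, and the highest knockdown value was less than the lowest control value by a wide margin. The mean was 6.90 ± 0.725 RPKM in si-SCR and 1.55 ± 0.579 RPKM in si-SMaRT (SD, n = 2 each), which is 4.44-fold lower. The ratio of single samples ran from 3.25 for the closest pair to 6.48 for the most distant pair. The log2 fold change was -2.12 with a standard error of 0.31, and it ran from -2.49 to -1.65 over the alternatives computed. Without si-SCR 1 it was -2.02, and no member was then past the threshold. No other gene overlaps the exons of Slc44a4 on either strand in the annotation used.

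The 4.44-fold difference of Slc44a4 stood beside 2 other changes between the same samples. Relative to the summed muscle markers, Slc44a4 stood at 0.889 and 0.730 RPKM per 1000 RPKM of markers in si-SCR 1 and 2, and at 0.312 and 0.271 in si-SMaRT 1 and 2. Slc44a4 was lower in both si-SMaRT samples on this scale, but the scale depends on the markers in the sum. Acta1 was the largest part of the sum in each sample. Of the 8 markers, 7 had a log2 fold change below 0 themselves, and the 8 ran from -1.25 (Ckm) to 0.26 (Myod1). Once each sample's dependence on GC content had been removed by a loess curve, the log2 fold change of Slc44a4 was -2.05. In RNA from whole cultures, fewer cells that express a gene and less RNA per cell cannot be told apart. The parts of the lower muscle markers and of GC content in the result were not tested.

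Slc44a1 (chr4:53440413-53622478, plus strand) stood at 12.0 and 12.1 RPKM in si-SCR 1 and 2, and at 12.7 and 16.0 RPKM in si-SMaRT 1 and 2. Both si-SMaRT samples were above both si-SCR samples, but si-SMaRT 1 only barely. The mean was 12.06 ± 0.0773 RPKM in si-SCR and 14.38 ± 2.32 RPKM in si-SMaRT, with a log2 fold change of 0.24 (SE 0.27). It was 0.08 without si-SMaRT 2 and 0.41 without si-SMaRT 1, so its size rested on si-SMaRT 2.

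Slc44a2 (chr9:21320698-21355028, plus strand) was the most abundant carrier, with 33.8 and 42.6 RPKM in si-SCR 1 and 2 and 45.3 and 35.5 RPKM in si-SMaRT 1 and 2. The groups overlapped, since si-SCR 1 was the lowest and si-SMaRT 1 the highest of the 4, with the other samples between them. The mean was 38.2 ± 6.23 RPKM in si-SCR and 40.4 ± 6.92 RPKM in si-SMaRT, with a log2 fold change of 0.08 (SE 0.27), a difference within the spread of the samples.

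The fall of Slc44a4 changed the make-up of the carriers more than their sum. The 3 carriers summed to 53.2 and 61.1 RPKM in si-SCR 1 and 2 and to 60.0 and 52.7 RPKM in si-SMaRT 1 and 2, so the sums of the groups overlapped. Slc44a4 made up 13.9% and 10.5% of that sum in si-SCR 1 and 2, and 3.27% and 2.17% in si-SMaRT 1 and 2. Slc44a1 held 22.6% and 19.8% in si-SCR against 21.2% and 30.4% in si-SMaRT, and Slc44a2 held the largest share in each of the 4 samples, from 63.5% to 75.5%. The ratio of Slc44a1 to Slc44a4 was 1.62 and 1.90 in si-SCR 1 and 2, and 6.49 and 14.0 in si-SMaRT 1 and 2. The transcripts of Slc44a1 and Slc44a4 differ in GC content (41.7% and 52.8%), which the difference between the si-SMaRT samples followed. With the GC trend removed, the log2 fold change was 0.11 for Slc44a1 and -2.05 for Slc44a4. The part of GC content in the shares and in this ratio was not tested.

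Chka (chr19:3851773-3894369, plus strand), a choline kinase, was the least abundant member in si-SCR. It stood at 2.46 and 2.74 RPKM in si-SCR 1 and 2 and at 3.07 and 2.95 RPKM in si-SMaRT 1 and 2, on 375 to 507 reads. Both si-SMaRT samples were above both si-SCR samples by a small margin. The mean was 2.60 ± 0.196 RPKM in si-SCR and 3.01 ± 0.0887 RPKM in si-SMaRT, with a log2 fold change of 0.20 (SE 0.29). The difference was smaller than its standard error.

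The row that joins Chkb (chr15:89426360-89429908, minus strand) with Cpt1b stood at 5.09 and 6.17 RPKM in si-SCR 1 and 2, and at 6.002 and 4.89 RPKM in si-SMaRT 1 and 2. The groups overlapped. The mean was 5.63 ± 0.767 RPKM in si-SCR and 5.44 ± 0.789 RPKM in si-SMaRT, with a log2 fold change of -0.05 (SE 0.28). These values cannot be read as the level of the kinase alone, because Cpt1b and the read-through transcript Gm44502 lie on the same strand.

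Pcyt1a (chr16:32430921-32475070, plus strand), the cytidylyl transferase, stood at 13.3 and 14.6 RPKM in si-SCR 1 and 2 and at 11.9 and 13.3 RPKM in si-SMaRT 1 and 2. It counts among the members whose groups do not overlap only by 13.3152 RPKM in si-SCR 1 against 13.3149 RPKM in si-SMaRT 2, which is far inside counting error. The mean was 13.9 ± 0.886 RPKM in si-SCR and 12.6 ± 1.01 RPKM in si-SMaRT, with a log2 fold change of -0.15 (SE 0.26). The ratio of Pcyt1a to Chka was 5.40 and 5.31 in si-SCR 1 and 2, and 3.87 and 4.52 in si-SMaRT 1 and 2. The ratio was lower in both si-SMaRT samples. The log2 fold change of each of the 2 genes was smaller than its standard error, so no shift of either gene can be read from the ratio.

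Cept1 (chr3:106502260-106547802, minus strand) makes both phosphatidylcholine and phosphatidylethanolamine. It stood at 8.37 and 7.86 RPKM in si-SCR 1 and 2 and at 5.77 and 9.69 RPKM in si-SMaRT 1 and 2. The si-SMaRT samples lay on either side of the si-SCR samples. The mean was 8.11 ± 0.362 RPKM in si-SCR and 7.73 ± 2.77 RPKM in si-SMaRT, with a log2 fold change of -0.12 (SE 0.30).

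Chpt1 (chr10:88452745-88504073, minus strand), the choline phosphotransferase of the Golgi, had the same pattern. It stood at 18.0 and 17.0 RPKM in si-SCR 1 and 2 and at 12.3 and 23.4 RPKM in si-SMaRT 1 and 2, on 1157 to 2787 reads. The mean was 17.5 ± 0.688 RPKM in si-SCR and 17.9 ± 7.84 RPKM in si-SMaRT, with a log2 fold change of -0.04 (SE 0.31). The direction of both phosphotransferases depended on which si-SMaRT sample was used. Without si-SMaRT 2 the log2 fold change was -0.48 for Cept1 and -0.50 for Chpt1, and without si-SMaRT 1 it was 0.25 and 0.42, so the data give no direction for either gene.

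The phosphotransferases kept nearly the same proportion while their levels moved. The ratio of Chpt1 to Cept1 was 2.15 and 2.17 in si-SCR 1 and 2, and 2.13 and 2.41 in si-SMaRT 1 and 2. Their sum was 26.4 and 24.9 RPKM in si-SCR 1 and 2, but 18.1 and 33.1 RPKM in si-SMaRT 1 and 2. Cept1 and Chpt1 have the lowest GC content of the members, 39.5% and 37.9% of the longest transcript, against a median of 49.5% over all rows tested.

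From si-SMaRT 1 to si-SMaRT 2 the difference was 0.74 for Cept1 and 0.92 for Chpt1 on the log2 scale. Between the si-SCR samples it was -0.09 and -0.08. In the si-SMaRT group the same difference was 0.33 for Slc44a1 (41.7% GC), 0.16 for Pcyt1a (47.9%), -0.35 for Slc44a2 (48.3%), -0.06 for Chka (49.96%), -0.73 for Slc44a4 (52.8%) and -0.29 for the Chkb row (55.1%). The 4 members of lowest GC content were thus higher in si-SMaRT 2 and the 4 of highest GC content were lower there. Across all rows, the median difference was 0.76 in the lowest of 20 bins of GC content and -0.99 in the highest. The members did not all lie on this trend. Slc44a2 had the opposite sign to the bin around 48.1% GC, where the median was 0.09. Slc44a4 had the sign of the bin around 52.9% GC but lay below its middle 50%, which ran from -0.46 to -0.14. Slc44a1 and the Chkb row lay outside the middle 50% too, with differences smaller than those of their bins. The part of GC content in the members' differences was not tested, but with the GC trend removed the log2 fold change was -0.28 for Cept1 and -0.22 for Chpt1.

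**Figure D2:**
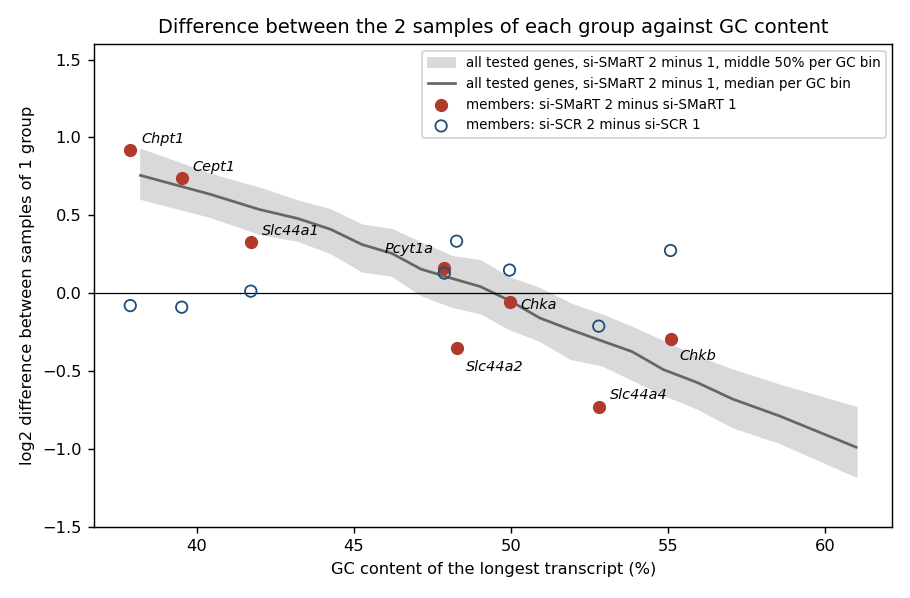
Log2 difference between the 2 samples of a group (vertical axis) against GC content of the longest transcript in percent (horizontal axis), for the 8 members in si-SMaRT (filled points) and si-SCR (open circles), with the median and middle 50% of all tested genes for si-SMaRT 2 minus si-SMaRT 1. Chpt1 and Cept1 sit at the top left, at 0.92 and 0.74, and Slc44a4 sits lowest, at -0.73, while the open circles stay between -0.21 and 0.33.

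By mean level in si-SCR the order was Slc44a2, Chpt1, Pcyt1a, Slc44a1, Cept1, Slc44a4, the Chkb row and Chka. Slc44a2 was higher than 87.7% of all rows and Chka higher than 26.7%, with Slc44a4 close to the middle of the table at 49.97%. Within si-SCR the ranges of neighbours in this order did not overlap. Over all 4 samples, the ranges of Chpt1 and Pcyt1a, of Pcyt1a and Slc44a1, of Cept1 and Slc44a4, and of Slc44a4 and the Chkb row overlapped. Pcyt1a exceeded Slc44a1 in 2 of 4 samples, both of them si-SCR, and Slc44a4 exceeded the Chkb row in 2 of 4, again both si-SCR. In the si-SMaRT samples Slc44a4 was the lowest member, below Chka.

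The members did not share 1 profile over the samples. As a measure of likeness, the root mean square difference of log2 levels was taken over the 4 samples, after each row was centred on its own mean. The closest pairs were Slc44a2 with the Chkb row at 0.0716 and Cept1 with Chpt1 at 0.0739. Slc44a4 lay far from the other 7, from 1.04 to Pcyt1a up to 1.24 to Slc44a1. This distance uses the same 4 values as the fold change. For Slc44a4 it therefore mostly restates the contrast by which the members were chosen, and it is not a separate result. Among all rows tested, those closest to Slc44a4 were Pstpip1 (0.127), Padi2 (0.1304), Mybpc2 (0.153), Ctrb1 (0.159) and Padi3 (0.174). In the same way, these are rows picked for a similar fall in these samples. Padi2 and Padi3 encode peptidylarginine deiminases, Mybpc2 the fast form of myosin-binding protein C, Pstpip1 a cytoskeletal adaptor and Ctrb1 a chymotrypsinogen. Pstpip1 stood at 4.25, 4.06, 1.39 and 0.784 RPKM in si-SCR 1, si-SCR 2, si-SMaRT 1 and si-SMaRT 2, and its log2 fold change was -1.89. Padi2 stood at 4.11, 4.14, 1.11 and 0.780 RPKM in the same order, with a log2 fold change of -2.03. Mybpc2 and Padi3 rested on 95 reads each over the 4 samples, so their likeness is loosely measured.

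The wider pathway was described by 51 other genes of phospholipid metabolism in 7 lists, of which 36 were in the table and 35 passed the filter on low values. Of these 35, 0 were called at an adjusted p of 0.05 by limma and 0 by voom on the recovered reads. Over all rows tested, the shares called were 0.505% by limma and 0.929% by voom. A count of 0 in 35 genes is near those shares and does not show that the pathway was unchanged. At an unadjusted p of 0.05 in limma, 1 was higher and 4 were lower, which is 14.3% of the list beside 9.09% of all rows. The median log2 fold change of the 35 was -0.10, with 15 above 0 and 20 below 0.

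**Figure D3:**
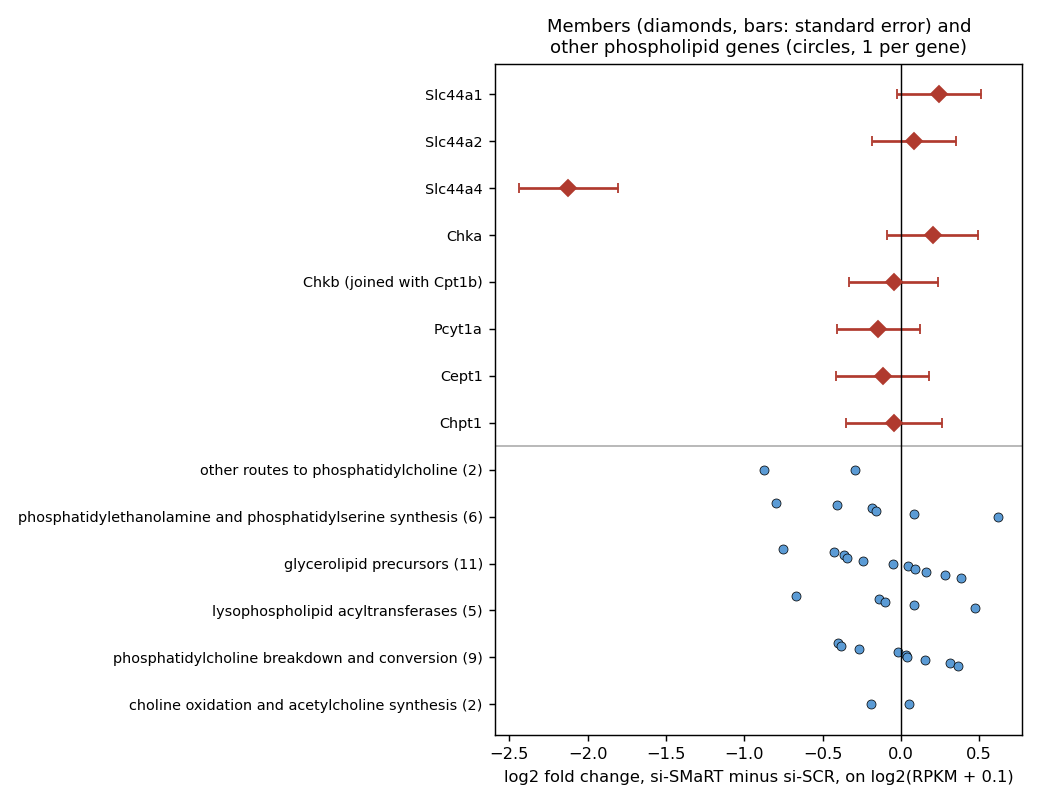
Log2 fold change of si-SMaRT against si-SCR (horizontal axis) for the 8 members (diamonds, with bars of 1 standard error) and for the 35 other phospholipid genes tested (circles, 1 per gene, by list with the number tested). Slc44a4 lies at -2.12, apart from the other members between -0.15 and 0.24 and from the other phospholipid genes between -0.88 and 0.62.

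Pemt methylates phosphatidylethanolamine to phosphatidylcholine, the route that needs no choline. It stood at 4.17 and 3.19 RPKM in si-SCR 1 and 2 and at 2.19 and 1.73 RPKM in si-SMaRT 1 and 2. The groups did not overlap, and the log2 fold change was -0.88 (SE 0.30) with an adjusted p of 0.299 in limma, so it was not called.

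For phosphatidylethanolamine and phosphatidylserine, 6 of 7 genes were tested, with a median log2 fold change of -0.17. Pcyt2, the ethanolamine counterpart of Pcyt1a, stood at 16.2 and 20.2 RPKM in si-SCR 1 and 2 and at 13.9 and 7.70 RPKM in si-SMaRT 1 and 2. Its log2 fold change was -0.80 (adjusted p of 0.368 in limma), and it was -0.38 without si-SMaRT 2 and -1.22 without si-SMaRT 1. Ptdss1, a phosphatidylserine synthase that exchanges the choline head group, had the highest level of that list, with 18.0, 16.4, 15.2 and 15.0 RPKM in the same order. Etnk1, an ethanolamine kinase named here after its values were seen, was the gene that was higher at an unadjusted p of 0.05, with 6.61 and 7.86 RPKM in si-SCR and 10.3 and 12.1 RPKM in si-SMaRT.

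The lists of glycerolipid precursors (11 tested) and of lysophospholipid acyltransferases (5 tested) had median log2 fold changes of -0.05 and -0.10. Agpat4, an acyltransferase of phosphatidic acid synthesis, stood at 21.4 and 22.3 RPKM in si-SCR 1 and 2 and at 14.0 and 12.0 RPKM in si-SMaRT 1 and 2. Lpcat3, which puts polyunsaturated chains into phosphatidylcholine, stood at 24.7 RPKM in both si-SCR samples and at 17.2 and 13.9 RPKM in si-SMaRT 1 and 2. Both genes were lower in both si-SMaRT samples, with log2 fold changes of -0.75 and -0.67 and adjusted p of 0.307 and 0.395 in limma, and neither was called. Agpat3, the most abundant precursor gene, stood at 41.3 and 43.7 RPKM in si-SCR 1 and 2 and at 37.2 and 26.7 RPKM in si-SMaRT 1 and 2, with a log2 fold change of -0.43 (adjusted p of 0.690 in limma) that was -0.19 without si-SMaRT 2 and -0.67 without si-SMaRT 1.

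Genes that break down or convert phosphatidylcholine had a median log2 fold change of 0.03 over 9 tested. Pla2g6, a calcium-independent phospholipase, stood at 7.09 and 9.07 RPKM in si-SCR 1 and 2 and at 8.45 and 4.34 RPKM in si-SMaRT 1 and 2, so the groups overlapped. Of the genes that oxidise choline or make acetylcholine from it, 2 of 6 were in the table. Sardh, the sarcosine dehydrogenase of choline breakdown, stood at 2.59 and 2.92 RPKM in si-SCR 1 and 2 and at 3.70 and 1.54 RPKM in si-SMaRT 1 and 2, with overlapping groups.

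The pull-down asked which transcripts were recovered with lnc-SMaRT, a readout that the choice of the members did not use. None of the members had an exon under a peak, 0 of 8 among 345 peaks of the lnc-SMaRT pull-down and 0 of 8 among 336 peaks of the LacZ pull-down. Of the 11070 rows with a gene model, 0.596% had an exon under a peak of the lnc-SMaRT pull-down and 0.352% under one of the LacZ pull-down. The count remained 0 with either strand and with the whole gene body. Asking for an overlap of at least 100 bases or for peaks of p under 0.001 can only remove matches, so these settings could not change it. With so few peaks and 1 library for each pull-down, a count of 0 in 8 genes does not show that lnc-SMaRT leaves these transcripts alone.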

How the data were processed

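Total RNA-Seq of 4 C2C12 samples (si-SCR and si-SMaRT, 2 each, described as independent populations) and the peak lists of 1 lnc-SMaRT and 1 LacZ pull-down library were used. The input library was not analysed here. The authors made the RPKM values: reads were trimmed with Trimmomatic, rRNA and tRNA reads were removed with Bowtie 2, and the rest were aligned to GRCm38 with TopHat2 and Ensembl annotation. Mitochondrial reads were removed before counting with htseq-count (intersection-strict). The authors then removed genes with low CPM and took RPKM from edgeR on TMM-normalised libraries. The deposited peaks carry a p-value from Piranha in bins of 200 bases, and which of the comparisons in the methods they hold is not given in the sources used here.

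RPKM plus a pseudocount of 0.1 were taken to log2. Rows whose mean RPKM reached 0.5 were fitted in limma 3.58.1 (R 4.3.3) by lmFit, followed by eBayes with a trended prior. P-values were adjusted after Benjamini and Hochberg, and 0.05 was the threshold. Because of the pseudocount, fold changes of rows with low RPKM come out too small. In every row the RPKM were multiples of what 1 read is worth (tolerance 0.001), and this gave reads for all 11642 rows. These are lower limits where gene length did not fix the common factor, which includes Slc44a2, the Chkb row and Pcyt1a. Reads were used for depth and for voom. A count test could not be the main test, since the deposited unit is RPKM. Gene positions, GC content and overlap with other genes came from GENCODE M21. On opposite strands, 6 of the 8 members (not Slc44a2 and Slc44a4) share exon bases with another gene. The library kit marks strand, and the strand setting of the counting is not given in the sources used here, so reads of such pairs may be mixed.

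Samples were grouped by their titles. The p-values weigh the difference between the groups against the spread between these samples only. The variance of each row was drawn toward a trend over all rows. The members and lists were chosen with earlier results of these data known. The genes named were the 8 members, lnc-SMaRT and the 5 tested rows most like Slc44a4. Of each list, the genes past the threshold were named. The genes with the highest mean RPKM and with the largest absolute log2 fold change of each list were named too. Selenoi, Gpat3 and Gpat4 were found under the older symbols Ept1, Agpat9 and Agpat6. Alternatives were pseudocounts of 1 and 0.01, other filters, quantile normalization, no variance trend, voom, removal of the GC trend (loess, span 0.3), a replicate block and each sample left out. The crossed block was added after the data were seen. Python 3.11.15, numpy 2.4.6, pandas 2.3.3 and matplotlib 3.10.9 were used for the rest. The steps were also tested on simulated data. The reads simulated for limma had equal spread in both groups and no GC trend, so they do not cover these features of the data. A withheld item is not reported here.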

Additional observations from a re-analysis of the deposited data

How the results depend on the processing

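Over all tested rows, 56 were called (64.3% of them lower). The count was 23 with quantile normalization (73.9% lower), 103 with voom on the recovered reads, 512 with the GC trend removed (55.1% lower), and 23 to 2911 with 1 sample left out, the highest without si-SMaRT 1 and the next, 940, without si-SMaRT 2, where 41.5% were lower and most calls were thus higher. Of the members, 1 was called under each alternative except without si-SCR 1, which gives a range of 0 to 1. Its cause was not tested. Of the other phospholipid genes, 0 were called, against 3 with the GC trend removed (Pcyt2, Agpat4 and Lpcat3), and 0 to 11 with 1 sample left out, where 11 came without si-SMaRT 1. The median log2 fold change of the other phospholipid genes ran from -0.20 to -0.01 over the alternatives. With 1 sample left out, the log2 fold change of Pla2g6 ran from -0.87 (without si-SMaRT 1) to 0.074 (without si-SMaRT 2) and that of Sardh from -0.79 to 0.42. With a pseudocount of 1 the log2 fold change of Slc44a4 was -1.65.

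With the replicate number as a block, 96 rows were called (80.2% lower), and 658 with the GC trend removed as well (57.1% lower). These were 0.866% and 6.01% of the rows tested. In both, 1 member was called, and 0 and 3 of the 35 other phospholipid genes, respectively. Deviations of same-numbered samples had a correlation of -0.36 across genes. The difference of sample 2 from sample 1 followed GC content in opposite directions in the 2 groups. Spearman's rho was -0.85 in si-SMaRT and 0.38 in si-SCR. The correlation therefore cannot show whether same-numbered samples were paired. With the crossed pairing, 487 rows (4.39% of those tested) and 1 of the 35 other phospholipid genes (Pemt) were called.

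With 2 samples per group, differences of the size seen for the 7 members other than Slc44a4 lie within their standard errors, so neither a change nor its absence can be read from them. The 51 reads of Slc44a4 in si-SMaRT 2 limit the precision of its fold. Read numbers cover counting error only.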
